A study of Caenorhabditis elegans with 2 samples.

Results

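Of the 4384 peaks in the list made from both replicates, 728 lay on the 5 autosomes at promoters shared by 2 or more protein-coding genes. A peak was placed by its summit, the base that the list marks as its point of highest signal. A promoter reached from 1000 bp before the start of a protein-coding transcript to 200 bp after it. Summits were left out where a gene for a tRNA, snRNA or snoRNA lay 200 bp away or less. The 728 peaks made up 35.8% of all autosomal promoter peaks so defined (95% exact interval 33.7 to 37.9, which covers the counting of peaks only), and the other 1305 lay in the promoter of 1 gene. At 676 of them the genes were divergent, that is, transcribed away from each other on opposite strands. At 50 all genes lay on the same strand. At 2 the genes also pointed away from each other, but their starts had passed each other, so that the genes overlapped at their 5′ ends, and these are kept apart from the 676. Most divergent peaks had 2 genes (625), 50 had 3 and 1 had 4, while each same-strand peak and each peak at overlapping starts had 2.

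The peaks come from chromatin immunoprecipitation with sequencing (ChIP-seq), which recovers the DNA bound by a protein. Whole Caenorhabditis elegans hermaphrodites of strain OP159, with the genotype unc-119(ed3) III and the integrated transgene wgIs159, were collected as L1 larvae 6 h after they had been synchronized by starvation following bleaching. The line stably expresses TBX-2, a transcription factor of the T-box family, fused at its C-terminal end to GFP-FLAG, and an anti-GFP antibody was used. The strain of the control sample is not given in the sources used here. There was 1 group with 2 biological replicates and no second condition. A whole animal holds many cell types, so a peak can come from some cells only, and a copy of tbx-2 on a transgene need not match the native gene in level.

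In C. elegans, genes are packed closely, and neighbours that point away from each other often have a short stretch of DNA between their starts that serves as the upstream region of both. Promoters of genes that most cells use are often of this kind, and the strand read along the gene tends to be rich in T just before the start. Closely spaced genes on 1 strand can also be transcribed together as an operon from the start of the first gene. A peak at such a place does not show which of the genes the bound protein acts on.

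The sequences around the summits of 3 strong divergent peaks are given first because they show the short words and the change of base composition described later. They have the highest mean rank among 2-gene divergent peaks of the chromosomes from which sequence is shown, with starts over 200 and up to 600 bp apart. Each is the plus strand, 5′ to 3′, of the C. elegans reference genome in RefSeq (WBcel235, the assembly also named ce11), up to 110 bp to each side of the summit and clipped to bases outside protein-coding genes. Capitals mark any of 12 words of 6 bases, on either strand, that are introduced with the sequence results. The stretches are chrIV:4749958-4750178, chrIII:13643621-13643841 and chrIV:13240652-13240796.
Y17G9B.5/rpl-20: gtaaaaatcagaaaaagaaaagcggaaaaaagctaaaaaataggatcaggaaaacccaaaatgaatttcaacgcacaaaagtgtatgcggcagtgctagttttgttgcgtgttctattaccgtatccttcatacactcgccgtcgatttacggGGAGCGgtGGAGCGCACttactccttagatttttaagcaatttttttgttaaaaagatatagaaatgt
drr-2/set-16: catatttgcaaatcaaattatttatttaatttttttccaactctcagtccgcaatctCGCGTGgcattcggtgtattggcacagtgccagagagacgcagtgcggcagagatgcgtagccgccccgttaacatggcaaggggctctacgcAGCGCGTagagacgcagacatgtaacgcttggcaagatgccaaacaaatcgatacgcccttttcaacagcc
rpl-12/lin-54: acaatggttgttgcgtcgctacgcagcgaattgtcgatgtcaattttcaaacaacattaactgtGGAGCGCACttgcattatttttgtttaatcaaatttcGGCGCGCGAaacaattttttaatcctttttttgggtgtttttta

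These 3 stretches held the words at 4, 3 and 6 positions, in the order printed. In the 100 bp left of the summit between Y17G9B.5 and rpl-20 there were 44 A and 19 T, and in the 100 bp right of it 24 A and 36 T. Between drr-2 and set-16 the order was the other way round, with 25 A and 30 T on the left and 27 A and 17 T on the right. Single peaks thus did not all follow the composition described below for the group.

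The 10 divergent peaks with the highest mean rank over the replicates are described first. The strongest, at tasp-1 (a threonine aspartase gene) and K01G5.10, had a signal of 634 in replicate 1 and 1048 in replicate 2, and ranked 2 in both. The signal is the authors' peak strength on a scale that is not stated, so it is compared only within a list. The peak of Y17G9B.5 and rpl-20, a gene of the large ribosomal subunit, had 555 and 915 in replicates 1 and 2 and ranked 6 in both. Its summit lay 172 bp upstream of the Y17G9B.5 start and 290 bp upstream of the rpl-20 start. At rpl-15 and K11H12.8 the signal was 509 in replicate 1 and 857 in replicate 2. At C47E8.4 and hsp-90, a cytosolic chaperone gene, it was 483 and 748. At Y22D7AL.10 and hsp-60, a mitochondrial chaperonin gene, it was 404 and 703. In both replicates these 5 ranked among the first 34 regions.

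Others of these 10 paired genes of different functions. The gene drr-2, which encodes a relative of a translation initiation factor, faced away from set-16, which encodes a histone methyltransferase, with starts 346 bp apart and signals of 416 in replicate 1 and 663 in replicate 2. The ribosomal gene rpl-12 faced away from lin-54, which encodes a DNA-binding subunit of the DREAM complex, with starts 393 bp apart and signals of 384 and 662. The summit there lay 35 bp from the start of rpl-12 and 358 bp from that of lin-54. At iff-2, which encodes translation factor eIF5A, and F54C9.14 the signals were 356 and 678. At tag-340 and nhl-2 the starts were 1423 bp apart, the signals 509 and 904. At scpr-1 and gpap-1 the starts were 376 bp apart, and this peak ranked 26 in replicate 1 and 48 in replicate 2.

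As a group, the shared peaks were stronger than the peaks of 1 gene in both replicates. Their median signal was 198 in the list made from both replicates, against 149 at 1-gene peaks, a ratio of 1.33. In replicate 1 the medians were 77.9 at shared and 57.8 at 1-gene peaks, and in replicate 2 they were 119 and 92.3. The interquartile ranges overlapped widely, from 126 to 336 at shared and from 102 to 262 at 1-gene peaks. The stronger 50% of the list held 66.8% of shared peaks (486 of 728) and 51.6% of 1-gene peaks. Of the 100 strongest peaks in the list, 26 were shared and 23 lay at 1 gene. With 2 replicates, an exact sign test cannot go below p = 0.5, so the direction in both replicates is given as a description. Peaks are not replicates and no test was run over them.

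**Figure D1:**
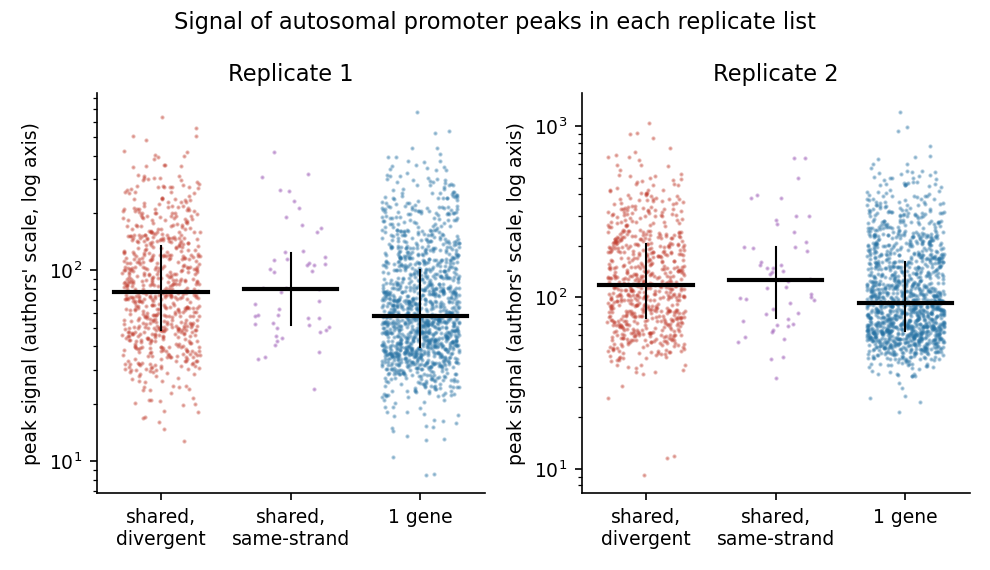
Signal of divergent shared peaks, same-strand shared peaks and 1-gene peaks on the autosomes, in replicate 1 (left) and replicate 2 (right), on log axes in the authors' units. Each point is a peak, the thick line is the median and the thin line spans the interquartile range; shared peaks of both kinds have the higher medians in both replicates, with wide overlap.

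Shared summits also lay closer to a start, at a median of 143 bp upstream of the nearest start for divergent and 152.5 bp for same-strand peaks, against 246 bp for 1-gene peaks. By the rule a shared peak has more starts in reach, and only the nearest was counted, so shorter distances there follow in part from the rule. How large this part is was not tested. The signal was therefore also compared at equal distance, a comparison chosen after the data were seen. Within 100 bp of a start the median signal was 205 at 241 divergent and 146 at 237 1-gene peaks. From 101 to 200 bp it was 204 and 147, from there to 400 bp 194 and 169, and from 401 to 1000 bp 161 (35 peaks) and 140. The divergent median was the higher in each class and in both replicates. Shared regions were narrower as listed, with a median width of 275.5 bp against 400 bp for 1-gene peaks. The median was also 400 bp for autosomal peaks outside promoters and for peaks on X. Weak shared peaks such as those at psf-2 and cox-6C were exactly 400 bp wide too. Whether the peak calling set this width was not tested, so no difference in the breadth of binding is drawn from it.

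Both replicates recovered most shared peaks. The strongest 4384 regions of replicate 1 included a summit within 100 bp of 92.9% of them (676, interval 90.7 to 94.6), against 87.3% of all peaks in the list and 87.4% of 1-gene peaks. Those of replicate 2 did so for 94.0% (684, interval 92.0 to 95.6), against 91.8% of all peaks and 92.3% of 1-gene peaks. The list was made from these replicates, so these shares do not check it independently. Over the 718 shared peaks matched in both whole lists, Spearman's rho between the replicate signals was 0.919, a description over peaks that share libraries. The median ratio of replicate 2 to replicate 1 signal was 1.56 (interquartile range 1.35 to 1.80). No match was found for 6 shared peaks in replicate 1 and for 4 in replicate 2, and none was missed in both.

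The 6 shared peaks whose ranks differed most were all weak in the list, at signals of 77.0 to 100.01. At psf-2 and zipt-1 the peak ranked 8739 in replicate 1 and 24705 in replicate 2. At cox-6C and grld-1 the ranks were 4086 and 19291, and at ecps-1 and atx-2 they were 3871 and 18719. The order was the other way round at lips-15 and ceh-100 (13131 and 3122), at usp-48 and F30A10.9 (9528 and 1041) and at M01F1.4 and mrpl-35 (10706 and 2452). A stronger summit of the list lay within 300 bp of 4 of the 6. Between usp-48 and F30A10.9, the weaker summit (signal 82.5 in the list) had a replicate 2 signal of 155. The stronger summit (242 in the list), 209 bp away, had no match in replicate 2. Whether the matching of neighbouring summits set the ranks of the 6 was not tested. Such neighbours were few. The divergent peaks lay between 661 pairs of starts, of which 14 held more than 1 summit, and 12 of the 15 gaps between neighbouring summits were 200 to 239 bp. At psf-2, cox-6C and ecps-1 the weaker region was 400 bp wide and began at or just beside the stronger summit. Whether the calling of regions set these gaps was not tested, so they do not show separate bound sites. The most summits, 3, lay at ecps-1 and atx-2, with signals of 476, 87.2 and 178 between starts 838 bp apart, and the widest gap, 695 bp, was at larp-5 and sld-2.

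Promoter sequence shared by genes held more summits per base than promoter sequence of 1 gene. The windows of 2 or more autosomal genes covered 2.51 Mb and held 291 summits per Mb, against 66.2 per Mb in the 19.7 Mb of windows of 1 gene, a ratio of 4.39. The ratio was 4.35 for the strongest regions of replicate 1 and 4.27 for those of replicate 2. Windows on both strands held 309 summits per Mb and same-strand overlaps 161. Outside promoter windows there were 21.6 per Mb. A base in a shared window lies near more starts, so regions between neighbouring genes were also compared by orientation and length.

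Between neighbouring genes that do not overlap, divergent regions held a summit most often at every length compared. Over all lengths, 28.4% of 3641 divergent regions held a summit (interval 26.9 to 29.9), against 10.3% of 8715 tandem regions, whose genes lie on 1 strand, and 1.88% of 2341 convergent regions, which hold no start. Over all 14697 autosomal regions the share was 13.5%. Among regions of over 200 and up to 500 bp, 41.2% of 628 divergent ones held a summit (interval 37.4 to 45.2), against 11.5% of 1525 tandem ones (interval 9.98 to 13.3) and 0.940% of 532 convergent ones. Replicate 1 gave 40.6% and 11.3% for divergent and tandem regions of this length, and replicate 2 gave 41.2% and 11.2%. A divergent region has 2 starts, and counted per 100 starts the values were 20.9 summits in divergent and 11.7 in tandem regions of this length. The order turned round above 2000 bp, with 12.7 summits per 100 starts in divergent and 17.6 in tandem regions of over 2000 and up to 5000 bp.

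**Figure D2:**
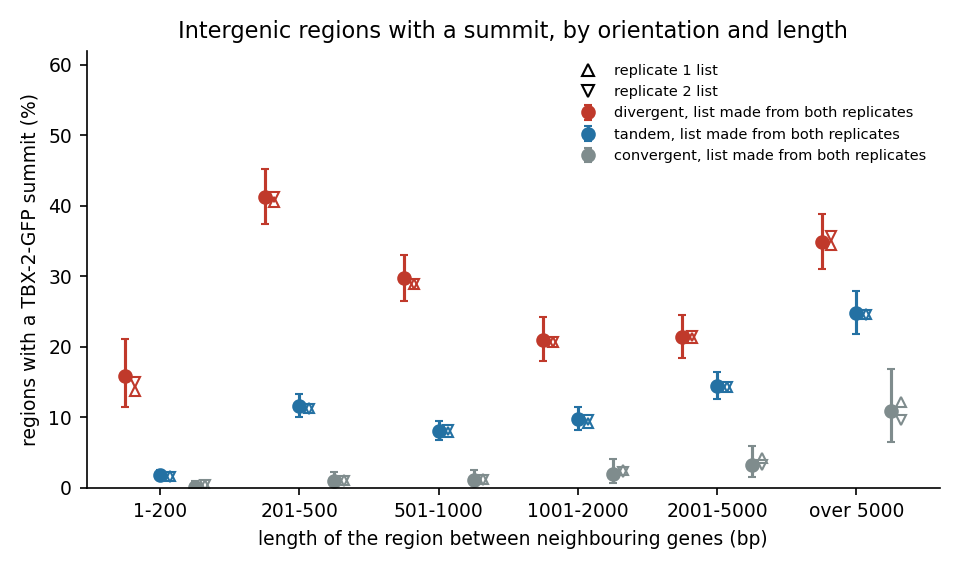
Percent of autosomal regions between neighbouring protein-coding genes that hold a summit, by length of the region in bp and orientation of the genes. Filled points are the list made from both replicates with 95% exact intervals, and open triangles are the strongest regions of each replicate alone; divergent regions of over 200 and up to 500 bp have the highest share, 41.2%.

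The share of divergent regions with a summit differed between chromosomes. In a division chosen after the data were seen, regions of up to 1000 bp were split into the central of 3 equal parts of a chromosome and the rest. In the outer parts, 48.1% of regions on chromosome I and 47.02% on III held a summit, against 24.5% on II, 31.2% on IV and 18.6% on V. In the central parts the shares were 30% on I, 22.7% on II, 45.7% on III, 30.1% on IV and 30.4% on V. Chromosome I stood higher in its outer parts and V in its centre, in both replicates, and over all autosomes the parts were close (31.4% in the centre, 32.5% outside).

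Most divergent summits lay between the starts of their genes. By gene model, 598 of the 676 fell in a region between divergent genes and 77 inside a gene. Regions between divergent genes also held 351 of the 1305 1-gene peaks (26.9%) and 19 of the 50 same-strand peaks (38%). At the 676 divergent peaks the starts were a median of 498 bp apart (interquartile range 307.5 to 760.2), and 94.5% of summits fell between them (639 of 676, interval 92.5 to 96.1). The summit was a median of 87.5 bp from the midpoint. A point as far from the midpoint as from the nearer start would be a median of 124.5 bp from it. The nearer start was a median of 143 bp away and the farther 336 bp, and the nearer start was on the plus strand at 344 peaks and on the minus strand at 330. The place of the summit changed with the spacing. For starts 401 to 600 bp apart, 57.05% of the summits between them lay in the central of 3 equal parts (interval 48.7 to 65.1). For starts 801 to 1200 bp apart it was 24.8% (interval 17 to 34), and the nearer start was then 221.5 bp away. For starts over 1000 bp apart the promoter windows themselves keep a summit away from the starts, since both must lie within 1000 bp of it. This holds for part of the class of 801 to 1200 bp and for all wider spacings.

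**Figure D3:**
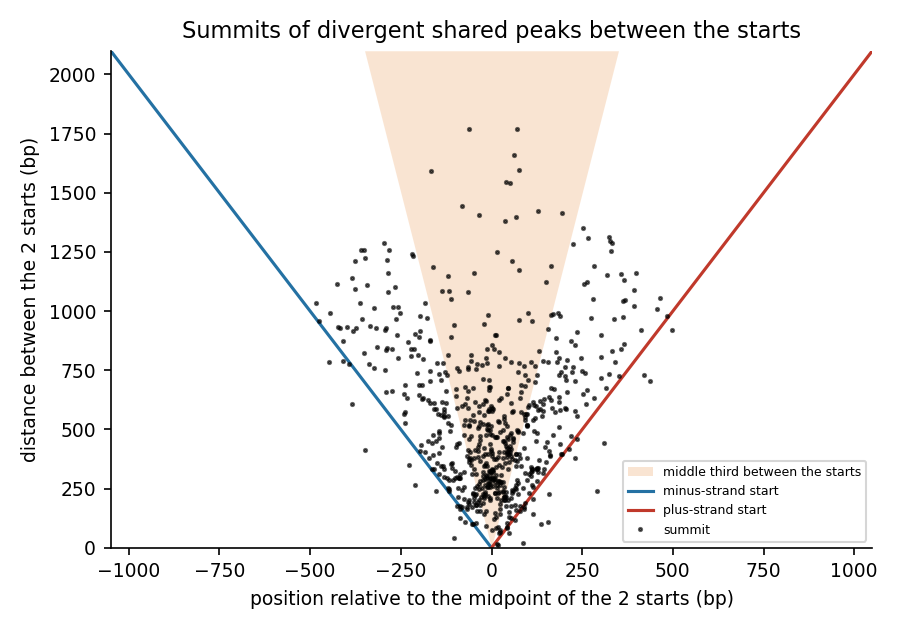
Position of each of the 676 divergent summits relative to the midpoint of the nearest minus-strand and plus-strand starts, in bp, against the distance between these starts in bp. The lines mark the starts and the shaded area the central of 3 equal parts; it holds 57.05% of the summits between starts 401 to 600 bp apart and 24.8% of those 801 to 1200 bp apart.

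On either side of a divergent summit, the strand read towards the gene that starts there held more T than A. The measure is (T − A)/(T + A) on the plus strand, which is negative where A is in excess. In the 150 bp left of the summit, towards the gene on the minus strand, its median was −0.14, and in the 150 bp to the right it was 0.13. Both signs held at 53.99% of the 676 peaks (interval 50.2 to 57.8), and the reverse of both at 4.73%. Replicate 1 gave 52.8% and replicate 2 gave 55.2%. At 1-gene peaks, read along the gene, the measure was 0.05 upstream and 0.18 downstream of the summit, so the median kept its sign. Read on the plus strand, as for divergent peaks, the 1-gene medians were −0.06 on the left and 0.07 on the right, so they changed sign too. Both signs held at 29.04% of 1-gene peaks (interval 26.6 to 31.6). They held at 44% of same-strand peaks (22 of 50, interval 29.99 to 58.7), an interval that holds the divergent share. Among divergent peaks, the share was 64.2% where starts were over 200 and up to 400 bp apart and 39.1% at 801 to 1200 bp. In bins of 20 bp the extremes were −0.19 at 70 bp left and 0.21 at 70 bp right of the summit. The G and C content was 51.1% at the summit and fell to 29.9% and 29.0% at 130 bp on the left and right.

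**Figure D4:**
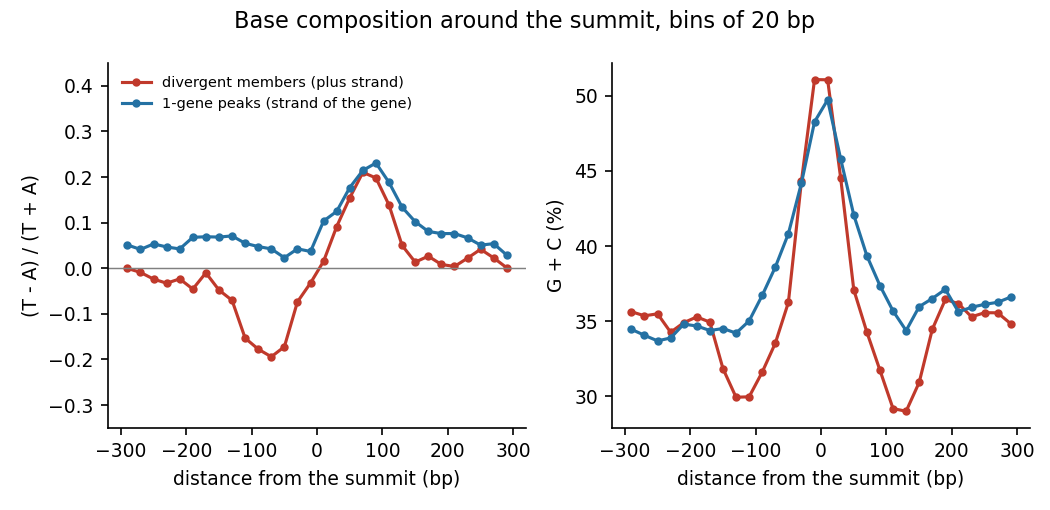
Excess of T over A, as (T − A)/(T + A), and percent G + C, in bins of 20 bp by distance from the summit in bp, for divergent peaks read on the plus strand and for 1-gene peaks read along the gene. Divergent peaks change sign at the summit, from −0.19 to 0.21, and have a G + C minimum on both sides.

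Words rich in G and C, each with at least 1 CG step, were frequent near the shared summits. They were picked from these same windows. Of 161 words of 6 bases present in at least 10% of the 101 bp windows around shared summits, the 12 with the highest ratio over unbound shared promoter sequence were taken, so the shares given are a description with no test. The unbound windows were 16002 stretches of the same length in divergent promoter overlap, over 500 bp from any peak of the list. The word GCGCGC was in 12.4% of shared windows, against 9.12% of 1-gene and 0.825% of unbound windows. ACGCGC was in 19.9% of shared, 13.9% of 1-gene and 1.44% of unbound windows. GCGCAC was in 18.5%, 9.96% and 1.47% of these windows in the same order, and GAGCGC in 19.2%, 12.7% and 1.59%. At least 1 of the 12 words was in 63.6% of shared windows (463 of 728) and 47.2% of 1-gene windows, against 10.9% of windows 300 bp to either side and 9.81% of unbound ones. The shared windows were richer in G and C, with a median of 45.5% against 34.7% in unbound windows. Among windows of 45 to 50% G + C, the words were in 66.7% of shared and 21.0% of unbound windows.

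A set of 16 motifs was searched in the same windows on both strands, and the share of unbound windows follows each value. The T-box site GGTGTGA is a form of the sequence that T-box proteins bind in other animals. It was in 0.412% of shared windows (3 of 728, interval 0.0851 to 1.20) and 0.644% of unbound ones, a share that this interval holds. It was in 1.38% of 1-gene windows. Its core GTGTGA, which lies within it, was in 6.04% of shared windows (1-gene 7.13%) and 3.46% of unbound ones. The TATA box word TATAAA was in 3.85% of shared and 13.3% of unbound windows, TTTTTTTT in 5.77% and 10.5%, the GATA word AGATAA in 2.75% and 6.66%, TTTGAA in 22.3% and 28.7%, and CCAAT in 15.4% and 18.8%. Higher in shared windows were the Sp1-like word CCGCCC (7.69% and 1.64%), the E2F-like words TTCGCGC (4.67% and 0.656%) and TTCCCGC (2.20% and 1.11%), CTGCGTCT (7.28% and 0.750%), TACNGTA (7.28% and 3.96%), GAGAGAGA (2.61% and 0.612%), the E-box CACGTG (2.75% and 1.81%) and TGACGTCA (0.962% and 0.462%). The heat shock element core GAANNTTC was in 5.49% and 7.07%. Some of these were more frequent still in 1-gene windows, with CTGCGTCT in 14.02% of them, GAGAGAGA in 7.66%, CACGTG in 6.74%, TTCCCGC in 3.07% and TGACGTCA in 1.07%, and no test of the difference was run. Several ratios depended on the window: with 100 bp to each side the share of TTTTTTTT in shared over unbound windows was 0.957, against 0.547 with 50 bp. A match is a description of letters, and no match says only that they are not in the window. Whether base composition sets these shares was not tested for single motifs.

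Genes of basic cell machinery were frequent at the shared peaks, and at autosomal promoter peaks of any kind. In all, 1458 of 17242 autosomal protein-coding genes (8.46%) lay at a shared peak, and 55.1% of the 2644 genes at any autosomal promoter peak did. The 26 gene lists were made from gene names, and each is described by its count beside the 8.46% of all genes. Of the 79 cytoplasmic ribosomal protein genes, 46 (58.2%, interval 46.6 to 69.2) lay at a shared peak, with a median signal of 329 at these peaks against 198 for all shared peaks. Counts were 17 of 37 translation factors (45.9%), 15 of 33 proteasome subunits (45.5%), 18 of 40 nuclear pore and transport genes (45.0%) and 24 of 58 chaperones (41.4%). They were 5 of 12 genes of the signal peptidase, translocon and glycosylation list (41.7%) and 23 of 58 spliceosome and RNA-binding motif genes (39.7%). They were 23 of 62 respiratory chain and ATP synthase genes (37.1%) and 23 of 65 genes of RNA polymerases, Mediator, Integrator and TFIID (35.4%). They were 26 of 89 cell cycle and replication genes (29.2%), 14 of 48 histones (29.2%) and 18 of 70 mitochondrial ribosomal proteins (25.7%). They were 27 of 113 genes of the vesicle sorting, Rab and vacuolar ATPase list (23.9%), 7 of 32 aminoacyl-tRNA ligases (21.9%) and 14 of 66 chromatin modifiers (21.2%). For ubiquitin and SUMO conjugation it was 6 of 55 (10.9%). At any autosomal promoter peak, where all genes had 15.3%, lay 84.8% of cytoplasmic ribosomal protein genes and 72.5% of nuclear pore and transport genes. Translation factors had 70.3% and proteasome subunits 63.6% there. Of the genes at any such peak, 55.1% of all genes lay at a shared one. Among these lists that share ran from 40% (ubiquitin and SUMO conjugation) and 50% (chromatin modifiers) to 93.3% (histones).

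Over the 26 lists, the interval lay above 8.46% for 15, below it for 4 large families and held it for 7. Chemoreceptors had 9 of 1266 genes at a shared peak (0.711%), C-type lectins 3 of 234 (1.28%), nuclear hormone receptors 4 of 246 (1.63%) and F-box and BATH or MATH genes 9 of 372 (2.42%), and these 4 had intervals below 8.46%. The intervals of ubiquitin and SUMO conjugation and of the lists that follow held it. Homeobox genes had 2 of 63 (3.17%), neuropeptides and insulin-like peptides 4 of 108 (3.70%) and cuticle collagens 8 of 145 (5.52%). Muscle contraction genes had 2 of 42 at a shared peak (4.76%), and 16 of 42 at any autosomal promoter peak (38.1%), where all genes had 15.3%. Synaptic genes had 1 of 30 (3.33%), and 10 of 30 at any (33.3%). A list of tbx-2 itself, candidate targets and the SUMO pathway genes smo-1, ubc-9 and gei-17 had 14 autosomal genes, of which none lay at a shared peak (0%, interval up to 23.2). Of these, ceh-22, smo-1, tbx-2 and ubc-9 had a 1-gene peak, and no promoter peak was at tnt-4, tbx-38, tbx-37, pha-4, lag-1, hlh-6, glp-1, gei-17, ceh-24 or D2096.6. The strongest shared peak with a chemoreceptor gene was that of sri-5 with rsr-1 (signal 524).

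**Figure D5:**
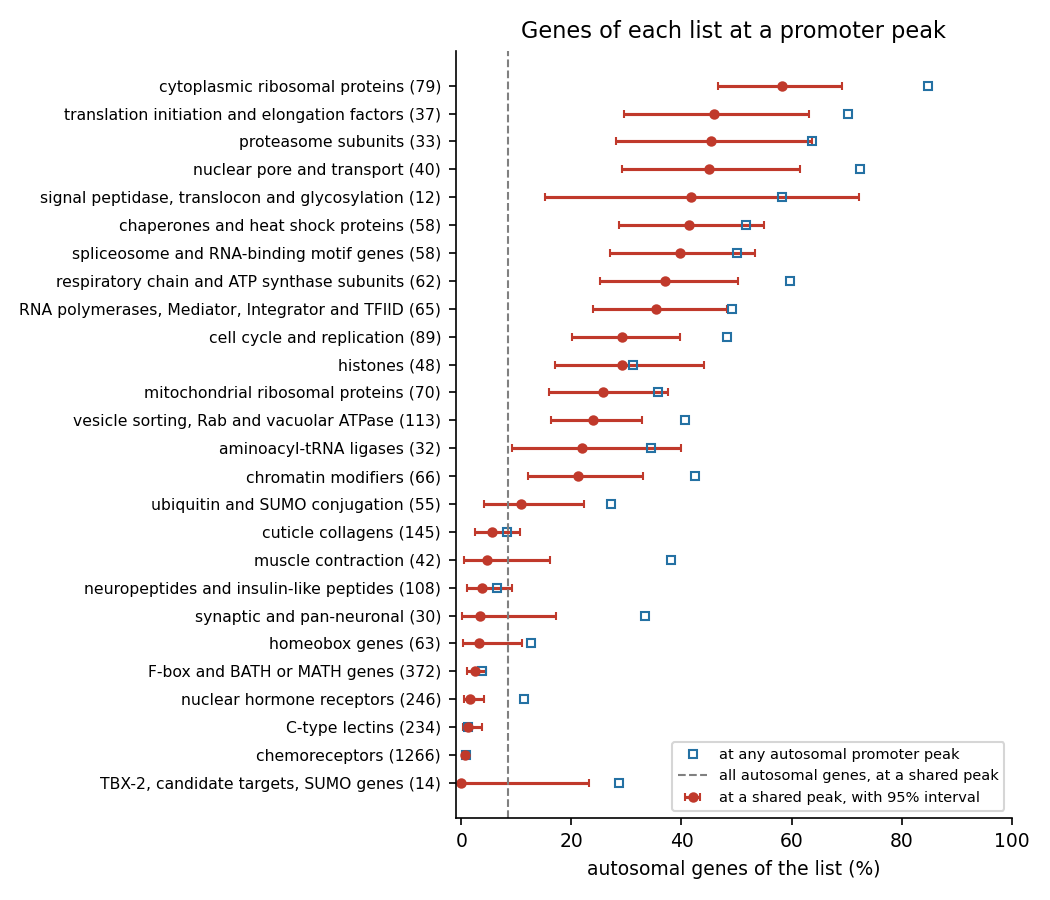
Percent of the autosomal genes of each list, with the number of genes in brackets, that lie at a shared peak (filled points with 95% exact intervals) or at any autosomal promoter peak (open squares). The dashed line is the 8.46% of all autosomal genes at a shared peak; ribosomal protein genes are highest at 58.2% and the list of tbx-2, candidate targets and SUMO genes is at 0.

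Of 43 shared peaks with a cytoplasmic ribosomal protein gene, 40 had 1 such gene and 1 other, and the summit was nearer the ribosomal gene at 15 of them (37.5%, interval 22.7 to 54.2, a count chosen after the data were seen). The strongest after rpl-20, rpl-15 and rpl-12 were at rps-1 and ifet-1 (signal 953), ska-3 and rps-12 (943), hsr-9 and rps-19 (934) and ekl-4 and rps-20 (791). Other leading pairs by list were eef-2, a translation elongation factor gene, with clsp-1 (738), htz-1, which encodes histone H2A.Z, with wapl-1 (734), the Mediator gene mdt-19 with apb-1 (696), vps-32.1, an ESCRT gene, with icd-1 (694), lin-53 with nra-2 (675), atp-1, the ATP synthase alpha subunit gene, with mcrs-1 (667), the proteasome gene rpn-3 with the chaperone gene hsp-110 (644), trap-3 with sec-61.B (627), mrps-7 with Y57G11C.3 (588), and npp-3, a nucleoporin gene, with top-2, the topoisomerase II gene (565). Of the tissue lists, the cofilin gene unc-60 shared a same-strand peak with F53E2.2 (199), mlc-5, a myosin light chain gene, a divergent peak with hip-1 (126), and ric-19 with pmlr-1 (255).

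At 18 gene sets, 2 of the genes came from 1 list. The strongest were cox-6B and nduc-2 of the respiratory chain, with Y71H2AM.20 as the other gene (signal 475), the splicing factor genes rsp-2 and rsp-1 (375), the ribosomal pairs rps-14 and rpl-36, with ndab-2 (358), rpl-24.1 and rps-10 (329), and rpl-39 and rps-30, with C26F1.3 (262), and orc-5 and cyb-1, of replication and the cell cycle (264). Histone genes gave 6 such peaks: his-68 and his-67, with alg-5 (354), his-41 and his-35, with C50F4.6 (209), his-62 and his-61 (149), his-60 and his-59 (136), his-31 and his-32 (121) and his-3 and his-4 (95.9). Members of the histone family are near-identical, so reads could be divided between copies. The heat shock genes hsp-16.41 and hsp-16.2, known for induction by heat, had a peak of signal 84.7, close to the weakest shared peak (76.8). Of all 728 shared peaks, 424 held no gene of any list.

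The sequences at his-62 and his-61 (chrIV:7486272-7486492) and at hsp-16.41 and hsp-16.2 (chrV:1804996-1805177) are shown because their genes are not of the constantly used kind and their summits lack the 12 words. They are plus strand, from the same source, and capitals mark TATAAA or its reverse complement and GAANNTTC.
his-62/his-61: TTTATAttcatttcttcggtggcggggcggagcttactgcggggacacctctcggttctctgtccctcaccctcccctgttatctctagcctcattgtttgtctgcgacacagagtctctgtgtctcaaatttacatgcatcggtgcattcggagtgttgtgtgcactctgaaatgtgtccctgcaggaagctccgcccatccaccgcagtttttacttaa
hsp-16.41/hsp-16.2: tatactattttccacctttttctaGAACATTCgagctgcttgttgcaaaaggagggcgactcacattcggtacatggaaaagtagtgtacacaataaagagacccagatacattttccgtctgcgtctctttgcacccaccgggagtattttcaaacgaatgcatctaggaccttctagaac

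The stretch at the histone pair held 1 TATA word and no match to GAANNTTC. That at the hsp-16 pair held 1 match to GAANNTTC and no TATA word. Neither held any of the 12 words. Other arrangements of the heat shock element were not searched. The hsp-16 stretch was clipped to bases outside genes, so its counts cover the printed bases only.

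Same-strand peaks came from neighbouring genes with a short upstream gene, or from annotated genes inside others. In 27 of 50 the genes were separate, with a median gap of 102 bp (39 to 529) and a median length of 583 bp for the upstream gene, against 1964 bp for autosomal genes in all. A second start 1000 bp or less from the summit requires a short upstream gene here, so this length follows from the rule. In 10 the genes overlapped, and in 13 the downstream gene was nested in the other, with nested genes of 30 to 195 bp, 11 of them up to 100 bp. The summit was nearer the start of the upstream gene at 48 of 50. It lay upstream of both starts at 46, where the start of the upstream gene is as a rule the nearer. A summit could also lie at most 200 bp past a start, so this count too follows largely from the rule. The strongest same-strand peak was at sec-61.G, a translocon subunit gene, and F32D8.13, with signals of 415 in replicate 1 and 649 in replicate 2 and a summit 233 bp upstream of sec-61.G. It is shown as the leading peak of its kind, on the plus strand at chrV:10897266-10897486, with the 12 words in capitals, of which it held none. Among all same-strand peaks, 28 of 50 windows held at least 1 of the words (56%, interval 41.3 to 70.0), against 64.1% of divergent windows.
sec-61.G/F32D8.13: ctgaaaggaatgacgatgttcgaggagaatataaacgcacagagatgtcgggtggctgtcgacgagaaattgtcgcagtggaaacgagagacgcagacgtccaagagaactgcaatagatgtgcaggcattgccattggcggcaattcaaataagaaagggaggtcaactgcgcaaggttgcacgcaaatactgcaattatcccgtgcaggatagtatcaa

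Next came egl-30, a G protein alpha subunit gene, with the nested C53H9.4 (321 and 649 in replicates 1 and 2), pqn-51 with the nested K11D12.14 (308 and 496), and 3 pairs of separate genes. These were the RNA polymerase II subunit gene rpb-11 with W01G7.4 (262 and 396), ddp-1, a gene of mitochondrial protein import, with ttc-7 (263 and 383), and the ribosomal gene rps-28 with Y41D4B.4 (232 and 383). Further separate pairs included F10E9.11 and sas-4, a centriole gene (signal 471), rpl-29 and thoc-7 (433), pfd-6 and rde-2 (326), baf-1 and tag-342 (169), and rpac-19 and the gamma-tubulin gene tbg-1 (155). Whether these pairs are operons was not tested, since operon annotation was not used here.

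The remaining small groups follow. The peaks at overlapping starts were at Y54E10BR.2 and the RNA polymerase gene rpb-7, where the starts passed each other by 3 bp (signals 129 in replicate 1 and 191 in replicate 2), and at rec-1 and the helicase gene pif-1, by 15 bp (32.8 and 45.6). The single peak with 4 genes lay at Y62E10A.23, mdt-9, Y62E10A.20 and lsm-3 (89.1 and 162). The strongest of the 50 with 3 genes was at cux-7, C07H6.2 and the DNA ligase gene lig-4 (394 and 522). The ADP/ATP translocase gene ant-1.1 shared its peak with T27E9.2 and abcf-2 (240 and 370 in replicates 1 and 2), and prp-19, a splicing gene, with K10D2.5 and emb-1 (239 and 378).

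The limits of the rule touched few peaks. The nearest members to a small RNA gene were 239 bp away, at Y38E10A.22 and Y38E10A.24, and 240 bp away, at ska-3 and rps-12, and 9 summits shared by genes were left out, the farthest at 117 bp, at tmem-107 and rps-26. The farthest second start inside the window lay at exactly 1000 bp, at nhr-182 and F41B5.12. Just outside it were zip-4 and nol-58, wht-3 and har-1 (position −1002 relative to the second start) and immp-1 and gbf-1 (−1005), and 21 summits counted as 1-gene had a second start within 50 bp beyond the window.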

How the data were processed

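ChIP-seq of tagged TBX-2 was carried out on 2 biological replicates of whole L1 larvae, as 1 group. Per the labels and the deposited notes, each replicate and both pooled have a list of 30000 regions with background, and a further list was thresholded by the irreproducible discovery rate (IDR), which compares the ranks of regions between replicates. The lists used are on ce11. For the aligner, the peak caller and the IDR threshold, nothing is given in the sources used here. Peak signal, a score in the deposited lists whose scale is unknown, served only for comparison within a list. The deposited −log10 q-value was not used. No read counts were used, so depth is unknown.

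Summits were set against Ensembl release 115 gene models (WBcel235) with Python 3.11.15, pandas 2.3.3, NumPy 2.4.6 and SciPy 1.17.1, checked first on simulated summits. Coordinates count from 1. Shares carry 95% exact Clopper-Pearson intervals, which cover the counting of peaks only. The strongest 4384 regions of each replicate stood in for it alone.

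The members, gene lists and motifs were chosen with earlier results of these data known. The 26 gene lists exist in 2 versions: patterns in 8 lists had taken in wrongly matched genes and were corrected after the counts of the first version had been seen. The largest shift was 3.57 percentage points. The corrected vesicle sorting, Rab and vacuolar ATPase list still held sec-61.G, a translocon gene. The 12 words, the signal at equal distance from a start, the comparisons by G + C and by part of a chromosome, and the count of the nearer ribosomal gene were also chosen after seeing the data. Named peaks are the 10 divergent, 6 same-strand and 2 overlapping-start peaks ranked highest on average over the replicates, the peak with 4 genes, the 6 least alike between replicates, up to 2 leading peaks of each list, the 8 strongest pairs within 1 list, candidate targets and peaks at the limits of the rule. Others were named, or their sequences shown, after their values were seen: further ribosomal and same-strand pairs, weaker histone pairs, the hsp-16 pair, 3-gene peaks and the peak with several summits.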

Additional observations from a re-analysis of the deposited data

How the results depend on the processing

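Each of the 9 results was recomputed under alternatives, giving 76 values, of which 28 moved by more than the spread between replicates or 1.5 times for a count. The density ratio and the signal ratio stayed above 1 under every alternative. The other results are counts, shares or a distance, for which no direction was defined, so a turn could not be seen for them. With replicate 2 alone and replicate 1 alone, in that order, shared peaks numbered 712 and 721, divergent ones 660 and 668, same-strand ones 51 and 50, the density ratio was 4.27 and 4.35, the signal ratio 1.31 and 1.38, divergent regions with a summit 28.3% and 27.8%, tandem ones 10.2% and 10.1%, the distance from the midpoint 86.5 and 93 bp, and the change of T over A 55.2% and 52.8%. In the stronger 50% of the list, same-strand peaks numbered 32, the density ratio was 5.68, the signal ratio 1.09, divergent and tandem regions with a summit 18.2% and 5.61%, and the distance 79 bp. The window of 500 bp upstream to 100 bp downstream gave 16 same-strand peaks, 6.13, 1.29, 54 bp and 60.3% for the same-strand count, density ratio, signal ratio, distance and change of T over A. The window of 2000 bp upstream to 200 bp downstream gave 149 same-strand peaks, a density ratio of 3.14, 131 bp and 48.8%. With the outermost start of each gene, the density and signal ratios were 4.59 and 1.28. Without exclusion near small RNA genes the density ratio was 4.23. Regions of 200 to 1000 bp gave 34.9% divergent and 9.66% tandem with a summit. Flanks of 75 bp gave 47.9%. Of the comparisons added after seeing the data, summits within 200 bp of a start gave a signal ratio of 1.39 and 1 summit per set of genes left 706 shared peaks. The causes were not tested. The share of the heat shock core in shared over unbound windows was 0.777, and 1.03 with 100 bp to each side. Other such ratios that moved by over 1.5 times, with 25 and 100 bp to each side where both did, were 0.184 and 0.634 for TATAAA (0.289 with 50 bp), 0.158 and 0.957 for TTTTTTTT (0.547), 0.257 and 0.679 for AGATAA (0.412) and 3.47 and 1.20 for TGACGTCA (2.08). With 25 bp they were 0.366 for GGTGTGA (0.640) and 0.457 for TTTGAA (0.775), and with 100 bp 5.80 for CTGCGTCT (9.71). The GGTGTGA ratios rested on 1 shared window with 25 bp and 3 with 50 bp. The first version of the gene lists changed 1 count by over 1.5 times: 4 muscle genes at shared peaks, against 2 in the corrected list. Matching within 50 or 200 bp gave recovery of 91.2% and 93.7% by replicate 1 and 93.1% and 94.8% by replicate 2. No paired analysis was possible because there is 1 group. The number of regions and the unknown depth limit what weak peaks can show.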
